A study of Homo sapiens with 5 samples.

Results

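The HES and HEY genes encode nuclear repressors, several of them switched on by Notch signaling, and NRARP encodes a feedback inhibitor of that pathway. A set of 10 such genes was followed cell by cell in SW480 tumors growing in zebrafish: HES1, HES2, HES4, HES5, HES6, HES7, HEY1, HEY2, HEYL and NRARP. They were taken by symbol from the UMI tables of all 5 sequenced plates, and all 10 were among the 15022 human genes kept. SW480, a long-established line from a human colorectal cancer, carried GFP from a lentiviral vector and was injected into the perivitelline space of zebrafish embryos at 2 days post fertilization. Tumors were dissected at 1 day post injection (1 dpi; 3 plates, libraries 6, 7 and 8), or at 4 dpi (2 plates, libraries 10 and 11), and GFP cells were sorted 1 per well for SORT-seq, which counts RNA molecules with unique molecular identifiers (UMIs). Both groups were the same parental line, with no treatment named, and differed in time. Roughly 100 tumors were mixed before sorting, and nothing says that each plate had its own mixture, so the spread between libraries may be technical.

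Notch receptors are cleaved after binding a ligand on a neighboring cell, and the released intracellular domain joins RBPJ and a Mastermind protein on DNA. HES1, HES5 and the HEY genes are among the best known genes that this complex switches on, whereas HES6 is known to be expressed without it. Their products are basic helix-loop-helix proteins that repress other genes, the HES proteins together with TLE corepressors. In the intestinal epithelium HES1 keeps cells from taking the secretory fate. NRARP is a small ankyrin repeat protein that binds the intracellular domain and dampens the signal.

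After the cell filter (over 2000 genes detected and under 25% of UMIs mitochondrial) 533 cells remained at 1 dpi and 293 at 4 dpi, between 132 and 228 per library. Human UMIs per library ranged from 4487175 to 7632953, and the median cell held between 18823 and 36197 UMIs, fewest in library 11. All 8 epithelial markers were detected in every library, with a summed level of 4838 to 5949 CPM (counts per 1000000 UMIs of the library). The blood and macrophage markers summed to 5.01 to 11.7 CPM, with 5 of 8 listed and PTPRC, AIF1 and TYROBP not among the genes kept. Endothelial markers (2 of 5 listed) summed to 1.25 to 2.00 CPM and fibroblast markers (2 of 6) to 22.9 to 44.2 CPM. Plates share the same 384 well barcodes by design, and 15 barcodes belonged to a passing cell in all 5.

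The sequences upstream of HES1, HES5, HEYL, NRARP and HES6 are shown with the letters GTGGGAA (or TTCCCAC on the other strand), the core that RBPJ binds. Those letters stand upstream of some members and not others. Whether they bear on the changes with time was not tested. Each run holds the 250 bases before the RefSeq start site (GRCh38.p14), 5′ to 3′ along the gene, with those letters in capitals.
HES1, chr3:194135898-194136147, plus strand: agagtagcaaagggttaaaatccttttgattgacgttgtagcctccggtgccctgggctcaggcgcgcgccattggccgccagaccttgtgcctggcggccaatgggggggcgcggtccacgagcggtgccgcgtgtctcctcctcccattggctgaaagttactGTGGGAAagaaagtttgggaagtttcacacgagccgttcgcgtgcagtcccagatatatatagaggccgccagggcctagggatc
HES5, chr1:2530264-2530513, minus strand: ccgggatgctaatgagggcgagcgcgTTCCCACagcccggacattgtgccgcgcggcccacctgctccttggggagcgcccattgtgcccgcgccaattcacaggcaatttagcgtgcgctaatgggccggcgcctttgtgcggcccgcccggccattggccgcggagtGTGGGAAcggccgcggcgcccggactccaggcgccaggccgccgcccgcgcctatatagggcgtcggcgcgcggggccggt
HEYL, chr1:39639644-39639893, minus strand: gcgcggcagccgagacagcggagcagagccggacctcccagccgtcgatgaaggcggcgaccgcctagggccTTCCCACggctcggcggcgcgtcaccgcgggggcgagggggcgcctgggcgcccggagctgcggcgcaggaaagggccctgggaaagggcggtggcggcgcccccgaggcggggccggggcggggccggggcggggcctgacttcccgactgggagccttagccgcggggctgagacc
NRARP, chr9:137302272-137302521, minus strand: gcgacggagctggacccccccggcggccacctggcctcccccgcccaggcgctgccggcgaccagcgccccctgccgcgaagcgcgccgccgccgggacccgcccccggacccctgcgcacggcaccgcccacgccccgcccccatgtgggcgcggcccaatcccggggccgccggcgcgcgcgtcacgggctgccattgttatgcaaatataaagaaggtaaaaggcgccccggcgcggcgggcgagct
HES6, chr2:238240039-238240288, minus strand: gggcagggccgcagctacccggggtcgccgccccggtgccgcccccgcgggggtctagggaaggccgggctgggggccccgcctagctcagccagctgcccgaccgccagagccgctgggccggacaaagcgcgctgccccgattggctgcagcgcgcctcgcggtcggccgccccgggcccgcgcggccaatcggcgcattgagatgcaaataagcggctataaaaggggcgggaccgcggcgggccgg
HES1 held the letters at -85 from its start site and HES5 at -81 and again, on the other strand, at -224. HEYL held them at -178, HES4 at -77, and HEY2 at -213 with another match at -4 that runs across the start site. No match lay in this stretch of HES2, HES6, HES7 or NRARP, and HEY1 was not analysed here. Of 35116 promoters of 300 bases (250 before and 50 after the start), 6.25% held at least 1 match. A match is a description of the letters and not of a binding site.

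HES1 and HES5, the repressors most often read as Notch output, were high at 1 dpi and low at 4 dpi in every library. HES1 (chr3:194136148-194138732) stood at 638, 1077 and 668 CPM (scaled by TMM) in libraries 6, 7 and 8 and at 98.2 and 74.4 CPM in libraries 10 and 11. Library 7 was the highest of its group and library 11 the lowest of all, and the groups did not overlap. The fitted log2 change from 1 to 4 dpi was -3.20 (SE 0.20, adjusted p = 5.4e-08, edgeR quasi-likelihood test), 9.19-fold lower. HES5 (chr1:2528745-2530263) stood at 128, 103 and 75 CPM at 1 dpi and at 2.52 and 3.90 CPM at 4 dpi, which is 31.8-fold lower (log2 change -4.99, SE 0.29, adjusted p = 3.5e-08). The 4 dpi values of HES5 rest on 10 and 15 UMIs in a whole library.

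The HEY repressors, which act in vessel and heart development, fell as well. HEYL (chr1:39623435-39639643) gave 22.5, 20.3 and 20.8 CPM at 1 dpi and 5.54 and 2.60 CPM at 4 dpi. These 1 dpi libraries lay close together, and the log2 change was -2.37 (SE 0.27, adjusted p = 1.9e-05, edgeR). The 4 dpi values of HEYL rest on 22 and 10 UMIs in a whole library. HEY2 (chr6:125749632-125761269) gave 13.0, 7.21 and 9.87 CPM against 5.04 and 2.34 CPM (log2 change -1.45, SE 0.36, adjusted p = 0.0077). HEY1 (chr8:79764010-79767767) gave 9.50, 5.13 and 4.41 CPM against 3.02 and 1.82 CPM (log2 change -1.42, SE 0.44, adjusted p = 0.024). HEY1 and HEY2 are the members whose calls depended on 1 library. Without library 11 neither was called (edgeR adjusted p = 0.149 for HEY1 and 0.0845 for HEY2), and without library 6 HEY1 was not (adjusted p = 0.120).

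NRARP (chr9:137299631-137302271) gave nearly equal values within each group, 80.4, 74.4 and 73.3 CPM at 1 dpi and 35.0 and 31.0 CPM at 4 dpi, a log2 change of -1.21 (SE 0.13, adjusted p = 9.7e-06, edgeR). HES4 (chr1:998964-1000097), a HES gene of humans that mice lack, gave 32.6, 43.9 and 49.6 CPM against 23.7 and 20.8 CPM (log2 change -0.90, SE 0.18, adjusted p = 0.0020). When each cell was thinned to 5000 UMIs the change of HES4 kept its direction and was not called (log2 change -0.79, adjusted p = 0.105).

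HES6 and HES2 moved the other way. HES6 (chr2:238238267-238240038) encodes a family member known to counteract HES1 and to favor differentiation, and it stood at 40.1, 37.6 and 36.3 CPM at 1 dpi and at 116 and 134 CPM at 4 dpi. The libraries of each time point lay close together and the rise was 3.27-fold (log2 change 1.71, SE 0.11, adjusted p = 8.1e-08, edgeR). HES2 (chr1:6415232-6419919) stood at 4.15, 2.47 and 3.15 CPM against 12.1 and 19.3 CPM (log2 change 2.22, SE 0.30, adjusted p = 8.0e-05). HES7 (chr17:8120592-8126634), known from the segmentation clock of the embryo, gave 5.35, 4.75 and 6.93 CPM against 8.31 and 7.28 CPM, and its log2 change of 0.47 (SE 0.29) was not called (adjusted p = 0.244).

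In total 7 of 10 members were lower and 2 were higher at 4 dpi, while 14.2% and 13.4% of all 12646 genes tested were called lower and higher (27.6% either way). The median log2 change was -1.32 over the members and 0.00 over all genes. Values of the libraries did not overlap for any of the 10, HES7 included, as for 54.6% of all genes tested. With the sequencing flow cell as a term (each of 2 flow cells held both time points) 9 members were called, as without it. The labels do not give the flow cell, which was inferred from the names of the deposited data.

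**Figure D1:**
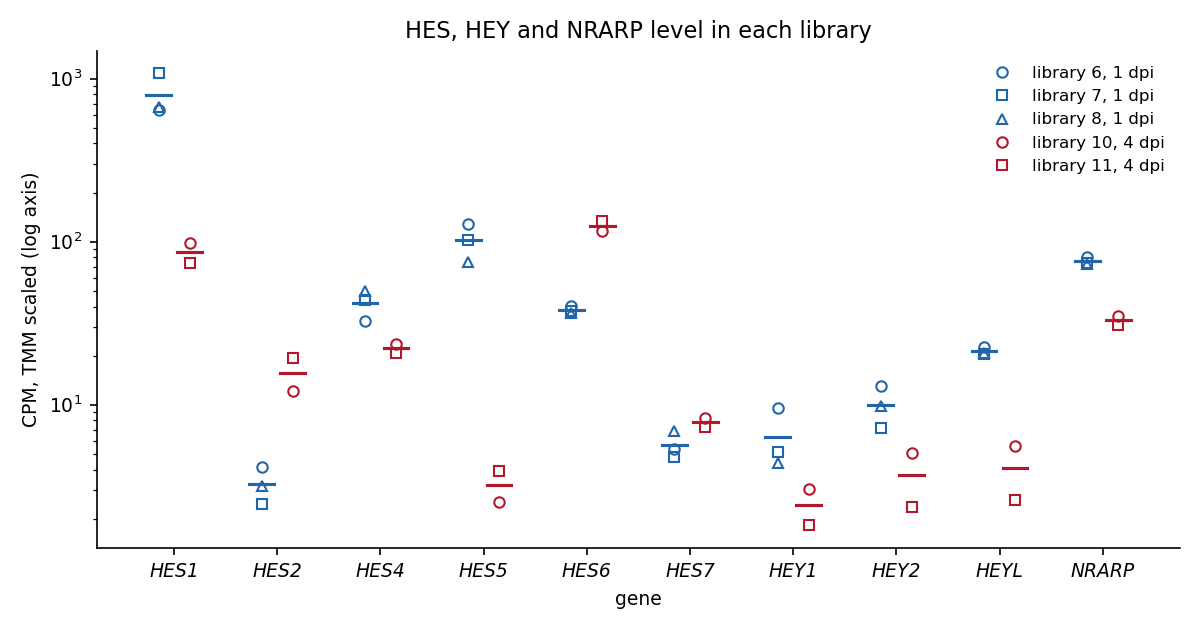
Level of each gene in each library, in CPM after TMM scaling on a log axis, with open symbols for libraries (blue 1 dpi, red 4 dpi) and bars for group means. HES1 and HES5 show the widest separation downward, and HES6 and HES2 lie higher in libraries 10 and 11 than in libraries 6, 7 and 8.

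The changes were then divided into how many cells carried a UMI of a gene and how many UMIs those cells held. HES1 was found in 69.7%, 93.7% and 65.0% of cells in libraries 6, 7 and 8 and in 47.0% and 46.0% in libraries 10 and 11. Cells with HES1 held 30.0, 42.7 and 30.0 UMIs of it on average at 1 dpi and 6.29 and 3.87 UMIs at 4 dpi. At least 10 UMIs of HES1 were counted in 25%, 38.0% and 28.8% of cells at 1 dpi and in 8.33% and 5.59% at 4 dpi. Thus both the share of cells and the number of UMIs in them were lower, and the highest cell of the 1 dpi libraries had 590, 394 and 286 UMIs against 72 and 24 at 4 dpi. The 10% of cells with the most HES1 held between 60.1% and 72.2% of all HES1 UMIs of a library, at both time points.

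HES5 was the more unevenly spread of these repressors. It had a UMI in 25.9%, 33.8% and 26.4% of cells at 1 dpi and in 6.82% and 5.59% at 4 dpi, which are 9 cells in each library. The 10% of cells with the most HES5 held 91.2%, 87.6% and 86.0% of the HES5 UMIs at 1 dpi, and no cell at 4 dpi had more than 5. HES6 showed the reverse over time: cells with at least 10 UMIs of it were 0.877%, 0% and 0% at 1 dpi and 12.9% and 9.94% at 4 dpi. The 0 of 142 and 0 of 163 cells allow shares of up to 2.11% and 1.84%, for counting error only.

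Since library 11 was the shallowest, shares were compared in cells thinned to 5000 UMIs, which left out 7 cells of 1 dpi and 4 of 4 dpi. HES1 was then detected in 47.5% ± 9.91 (SD, n = 3) of cells at 1 dpi and 22.7% ± 1.67 (n = 2) at 4 dpi. HES5 went from 13.8% ± 2.59 to 1.26% ± 1.78, HEYL from 8.90% ± 1.59 to 1.78% ± 0.742, NRARP from 20.9% ± 2.96 to 11.9% ± 1.69 and HES4 from 15.9% ± 1.46 to 8.91% ± 6.08. HES6 went from 15.8% ± 1.62 to 34.8% ± 1.42 and HES2 from 0.920% ± 0.938 to 7.55% ± 0.886. HES5 was in 0 of 130 thinned cells of library 10 and HES2 in 0 of 140 of library 7, which allows shares of up to 2.31% and 2.14%. Thinned cells with HES1 held 6.93, 10.4 and 7.95 UMIs of it on average at 1 dpi and 1.89 and 1.79 at 4 dpi, so the difference in UMIs per positive cell remained at equal depth. For these 7 of the 10 genes the shares of the libraries did not overlap between time points, as for 37.7% of all genes tested, and the exact permutation p over libraries was 0.1, the smallest that 3 against 2 libraries can give. In cells thinned to 10000 UMIs the difference of NRARP was smaller, 32.8% against 28.6% (exact permutation p = 0.2), and that of HES4 was 24.4% against 17.9% (exact permutation p = 0.2). The difference of HES4 at 5000 UMIs was -7.03 percentage points, -2.73 without library 10 and -11.3 without library 11. HEY1, HEY2 and HES7 overlapped between time points. Their thinned shares were 2.69% against 1.92%, 3.85% against 2.48% and 2.29% against 2.27%, and no difference was detectable at this depth.

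Whether the members were found in the same cells was asked next. Co-detection is given as the number of cells with a UMI of both genes over the number expected if the genes were independent within a library, in cells thinned to equal depth, and pairs with fewer than 3 expected cells were left out. At 1 dpi HES5 and HEYL were found together in 23 cells where 6.61 were expected (ratio 3.48, between 2.03 and 7.41 in the 3 libraries). HES5 and NRARP shared 38 cells against 15.4 expected (ratio 2.47), HEYL and NRARP 26 against 10.3 (ratio 2.53) and HES1 and HES5 66 against 34.4 (ratio 1.92). Each of these pairs exceeded its expectation in all 3 libraries. Among all genes with enough cells, 22.4% exceeded it with HES5 in all 3 libraries, with a median ratio of 1.06, and 25.7% with HES1.

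Pairs among HES1, HES5, HEY1, HEY2, HEYL and NRARP had a higher median ratio than pairs of these genes with the other members, and the ranges overlapped. This set of 6 was drawn after the values had been seen, so its counts are a description. Of its pairs, 11 had enough cells at 1 dpi, all had a ratio over 1, 10 exceeded the expectation in every library, and the median ratio was 1.97. The exception was HES5 with HEY2 (ratio 3.30 over 3.03 expected cells), at 0 in a library. Pairs between these 6 and HES2, HES4, HES6 or HES7 had a median ratio of 1.33 and exceeded the expectation in every library in 5 of 11 pairs. Their ratios ran from 0.80 to 2.04, against 1.55 to 3.48 among the 6. HES6 with HEY2 (2.04, at 0 in a library), HES1 with HES7 (1.80) and HES4 with HEY2 (1.78) lay above HES1 with NRARP (1.55). HES4 gave ratios of 1.74 with HEYL, 1.5 with NRARP and 1.14 with HES1.

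HES6 did not share cells with HES1 beyond expectation at either time. The pair was found in 37 cells against 38.4 expected at 1 dpi (ratio 0.96) and in 20 against 23.1 at 4 dpi (ratio 0.87, below 1 in both libraries). HES6 with NRARP gave a ratio of 1.15 at 1 dpi and 0.76 at 4 dpi. HES6 and HES2, which both rose, were found together in 11 cells at 4 dpi against 7.71 expected (ratio 1.43, above 1 in both libraries). Among all genes with enough cells, the median ratio with HES6 was 1.02 at 1 dpi and 0.96 at 4 dpi. At 4 dpi 21.0% of them exceeded the expectation with HES6 in both libraries. Most pairs of the 6 could not be judged in thinned cells at 4 dpi, because only HES1 with NRARP reached 3 expected cells (12 against 7.72, ratio 1.55, above 1 in 1 of 2 libraries). With all UMIs 9 pairs did, all 9 had a ratio over 1 (median 1.46) and 8 exceeded the expectation in both libraries. Without thinning, 55.0% of all genes with enough cells also exceeded it with HES1 in both libraries of 4 dpi.

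With all UMIs, single cells carried HES1, HES5, HEYL and NRARP at once in 33, 26 and 25 cells of libraries 6, 7 and 8 (14.5%, 18.3% and 15.3%). At 4 dpi there were 0 such cells in library 10, which allows a share of up to 2.27%, and 1 in library 11 (0.621%). At least 4 of the 10 genes were detected in 41.7%, 48.6% and 39.9% of cells at 1 dpi and in 29.5% and 21.1% at 4 dpi. Cells with none of the 10 ranged from 0.704% in library 7 to 11.0% in library 6. These shares depend on depth. In cells thinned to 5000 UMIs, 25% to 35.8% of a library had none of the 10, and cells with all of HES1, HES5, HEYL and NRARP were 2.21%, 2.14% and 3.75% at 1 dpi and 0 in both libraries of 4 dpi (0 of 130 and 0 of 159 cells allow up to 2.31% and 1.89%). At least 4 of the 10 were then found in 8.41%, 9.29% and 8.13% of cells at 1 dpi and in 0.769% and 3.77% at 4 dpi.

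The cells with HES5 at 1 dpi were then compared with the cells without it in the same libraries, summing UMIs per library and side and keeping the library as a block. HES5 was detected in 59, 48 and 43 cells, and these cells were deeper, with medians of 43405, 40238 and 42059 UMIs against 28311, 34771 and 20997. HES1 stood at 1506, 1868 and 1267 CPM in them and at 198, 572 and 286 CPM in the others (log2 difference 2.13, SE 0.13, adjusted p = 8.6e-12, edgeR). NRARP stood at 165, 133 and 142 CPM against 37.4, 37.4 and 29.7 CPM (log2 difference 1.94, SE 0.12), and HEYL at 46.2, 38.4 and 45.9 CPM against 10.4, 8.90 and 4.78 CPM (log2 difference 2.28, SE 0.22). In every library the values with HES5 were the higher ones. HEY1 (log2 difference 2.15, SE 0.35, adjusted p = 4.8e-05) and HEY2 (log2 difference 1.71, SE 0.28, adjusted p = 4.2e-05) were higher too.

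Hence 5 of the 9 other members were higher in HES5-detected cells and none lower, where 18.0% of 11197 genes were called higher and 34.8% either way. HES4 (log2 difference -0.05, SE 0.16), HES6 (-0.05, SE 0.16), HES2 (0.19, SE 0.44) and HES7 (0.54, SE 0.39) were not called. HES6, for example, stood at 48.6, 34.9 and 33.0 CPM with HES5 and at 35.6, 38.0 and 38.2 CPM without, higher in library 6 alone. In cells thinned to 5000 UMIs and divided again, HES1 (log2 difference 1.98), NRARP (2.29) and HEYL (2.70) were called, and HEY1 and HEY2 were too low to be tested. Without TMM scaling the median of all genes moved to 0.11 and the same 5 members were called.

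Levels in the cells without HES5 were set side by side across time as well. HES1 in cells without HES5 was 198, 572 and 286 CPM at 1 dpi and 105 and 77.2 CPM at 4 dpi, without overlap. In whole libraries 54.6% of all genes tested did not overlap either. The share of all genes in cells without HES5, thinned or not, was not computed. With all UMIs, NRARP in these cells was 37.4, 37.4 and 29.7 CPM at 1 dpi and 34.9 and 29.9 CPM at 4 dpi, and these ranges overlapped. At equal depth (cells thinned to 5000 UMIs and divided again) they did not. NRARP without HES5 was then 49.2, 41.0 and 40.8 CPM at 1 dpi and 32.3 and 25.8 CPM at 4 dpi. Thinning also moves cells with few HES5 UMIs to the side without it. At 4 dpi the 9 and 9 cells with HES5 had HES1 at 36.9 and 53.3 CPM, below the 105 and 77.2 CPM of the others, and HES6 at 203 and 217 CPM against 107 and 129 CPM. These 4 dpi values rest on 14 and 15 UMIs of HES1 and were not tested.

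Genes whose level followed HES1 and HES5 from cell to cell at 1 dpi were listed by the mean Pearson correlation over libraries of log(1 + UMIs per 10000), among 10976 genes found in at least 10% of cells. The 5 most like HES1 were EGR1 (0.79), CCNL1 (0.74), IER2 (0.73), JUNB (0.71) and FOS (0.69), of which EGR1, IER2, JUNB and FOS are immediate early genes. Their part in the HES1 values was not tested. NRARP (0.52) ranked 41 and HES5 (0.52) ranked 44. In the list for HES5, NRARP (0.61) ranked 1 and HEYL (0.55) ranked 5, with RIPK4 (0.59), a kinase of epithelial differentiation, EPHB3 (0.56), an ephrin receptor of the crypt, and ID1 (0.55) between them, and HES1 ranked 8. In cells thinned to 5000 UMIs, where HEYL was in too few cells to be listed, the 5 most like HES5 were HES1 (0.43), NRARP (0.43), PER1 (0.40), the immediate early gene IER2 (0.40) and EPHB3 (0.40), so an immediate early gene stood on both lists at equal depth. HES6 correlated with neither, at -0.03 with HES1 and -0.01 with HES5. The points are cells that share library and depth, so these values are descriptions.

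To ask whether the members differed with proliferation, cells were split at the library's median of summed S and G2/M gene UMIs per 10000, and both sides were compared in all 5 libraries with the library as a block. Cells high for cycle genes were deeper in every library. HES6 was higher in them, at 48.7, 44.2, 40.8, 146 and 183 CPM against 26.8, 27.1, 29.7, 79.4 and 73.1 CPM in libraries 6, 7, 8, 10 and 11 (log2 difference 0.88, SE 0.12, adjusted p = 1.7e-05, edgeR). HES1 was also higher, at 794, 1255, 868, 120 and 79.1 CPM against 397, 793, 382, 72.1 and 70.6 CPM (log2 difference 0.77, SE 0.10, adjusted p = 1.1e-05). Both genes were higher on the cycling side in 5 of 5 libraries. HES5 was called higher (0.59, SE 0.19, adjusted p = 0.031) though libraries 7 and 11 went the other way. HES4 was called lower (-0.53, SE 0.14, adjusted p = 0.012), at 31.1 against 58.5 CPM in library 7. Library 11 went the other way for HES4, at 21.3 against 20.9 CPM. Both of these calls rested on single libraries: HES5 was not called when library 6 (0.24, adjusted p = 0.490) or 8 (0.49, adjusted p = 0.166) was left out, nor HES4 without library 7 (-0.37, adjusted p = 0.114).

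Thus 3 members were higher and 1 was lower in cells high for cycle genes, among 16.6% of 10865 genes called (8.96% higher and 7.63% lower). NRARP (log2 difference 0.30, adjusted p = 0.118) and the other 5 (0.05 to 0.36) were not called. In thinned cells HES6 alone remained called (log2 difference 0.83, adjusted p = 0.0021), while HES1 had a log2 difference of 0.31 (adjusted p = 0.125). Without the library block none of the 4 was called. The change with time was compared between both sides, and 0 of 10 members differed by edgeR, where 0.539% of 11688 genes did, and 0 by DESeq2. The SE of this difference reached 0.86 for HES5 and 0.83 for HEY1, so differences could be missed. Before adjustment 1 member, HES6, was under 0.05, with a rise greater in cells high for cycle genes by 0.55 on the log2 scale (SE 0.21, edgeR adjusted p = 0.389).

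Genes of the Notch pathway around the members were examined in the fit of time points, from 9 lists written from general knowledge. Of 71 genes 58 were tested, 8 were higher and 9 lower at 4 dpi, near the 13.4% and 14.2% of all genes tested, and their median log2 change was 0.04. A share of calls this near to that of all genes is no result about the pathway, and the genes named are given as a description. Among receptors NOTCH1 was higher (33.6 to 39.2 CPM against 53.1 and 53.6 CPM, log2 change 0.54, adjusted p = 0.0052, edgeR) and NOTCH3 lower (-1.64, adjusted p = 0.044), with NOTCH2 and NOTCH4 (1.15, adjusted p = 0.059) not called. NOTCH3 lost its call without libraries 10 and 11 in turn (adjusted p = 0.165 and 0.155). No ligand of 5 was called. JAG2, the ligand nearest to the threshold, stood at 70.0 to 72.7 CPM against 82.9 and 93.1 CPM (log2 change 0.30, adjusted p = 0.053), the extremes were DLL1 (1.36, adjusted p = 0.058) and JAG1 (-0.49, adjusted p = 0.083), and DLL4 stood at 1.07 (adjusted p = 0.053).

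Of 13 genes for receptor processing, the gamma-secretase subunits PSENEN (log2 change 0.78, adjusted p = 9.7e-05) and APH1B (1.98, adjusted p = 0.0041) were higher and none was lower, with MFNG (-0.77) the lowest and not called. APH1B was not called without library 10 (adjusted p = 0.0733). Of 11 genes of the nuclear complex, the coactivator EP300 (-0.56, adjusted p = 0.0017) and the corepressor SPEN (-0.41, adjusted p = 0.0082) were lower, SPEN not without library 11 (adjusted p = 0.0619). RBPJ itself stood at 147, 117 and 140 CPM against 129 and 114 CPM, overlapping between time points, and the extreme upward was MAML3 (0.71, not called). Of 9 regulators of receptor and ligand tested, DTX1, itself known as a Notch-responsive gene, gave 6.96, 5.51 and 4.2 CPM against 1.76 and 0.780 CPM (log2 change -2.12, adjusted p = 0.0038). NUMBL (-1.22, adjusted p = 0.0015) and FBXW7 (-0.54, adjusted p = 0.027) were lower and DTX3 (0.41, adjusted p = 0.025) was higher. FBXW7 was not called without library 8, 10 or 11 (adjusted p = 0.0807, 0.165 and 0.0525), nor DTX3 without library 7, 8, 10 or 11 (adjusted p = 0.0669, 0.0571, 0.155 and 0.0525).

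Genes listed as cofactors of HES or HEY proteins moved in both directions. ID1, whose product binds helix-loop-helix proteins and keeps them off DNA, stood at 325, 298 and 239 CPM against 89.9 and 70.5 CPM (log2 change -1.84, adjusted p = 3.4e-07, edgeR). AES, a short TLE protein, was higher (0.71, adjusted p = 2.7e-04), as was ID4 (1.80, adjusted p = 0.016), from 0.420 to 2.66 CPM at 1 dpi to 4.28 and 5.46 CPM at 4 dpi, though not without library 11 (adjusted p = 0.105). BHLHE41, a related Orange domain repressor, was at 125.7 and 313 CPM at 4 dpi against 66.1 to 85.2 CPM (log2 change 1.48, adjusted p = 3.1e-04), with library 11 far above library 10. Without library 11 its log2 change was 0.68. BHLHE40 was not called (-0.34). Of 5 other genes known to respond to Notch, MYC (-0.69, adjusted p = 4.0e-04) and SOX9 (-0.62, adjusted p = 8.3e-04) were lower and CCND3 (0.49) was the extreme upward, not called. ASCL2, a stem cell factor, was called higher (0.48, adjusted p = 0.039) although its libraries overlapped, but not without library 6, 7 or 11 (adjusted p = 0.0561, 0.124 and 0.424), and GFI1 (0.30) was not called. ATOH1, NEUROG3 and SPDEF, which direct secretory fates, were not among the genes kept.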

How the data were processed

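The authors sorted single cells into 384-well plates, prepared SORT-seq (CEL-Seq2) libraries and aligned reads with BWA to the human reference (hg38, per the labels). The BWA version and the annotation used were not given in the sources used here. They deposited raw UMI counts per gene and well, without normalization. Genes listed in all 5 files and found in at least 10 wells were kept, and wells were filtered as in the authors' code. ERCC controls were left out of totals. No doublet caller was run on these sorted wells.

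UMI sums of each library were fitted with edgeR 4.0.16 (quasi-likelihood, TMM, filterByExpr, two-sided, Benjamini-Hochberg over all genes, threshold 0.05) in R 4.3.3. CPM between time points are TMM scaled, and within libraries are plain. DESeq2 1.42.0 was the alternative tool. Each library is 1 replicate. Shares of cells were compared by exact permutation of libraries (two-sided). Thinning drew 5000 or 10000 UMIs per cell with a fixed seed. Cycle genes were those of Seurat 5.3.0. Descriptions used pandas 2.3.3 and numpy 2.4.6 in Python 3.11.15. A simulated set of the same size, in which 200 genes had a log2 change of 1.5, had 92.3% of these called between time points. Of its calls, 5.26% were false. Its dispersion was fixed for all genes and not estimated from these libraries, so the shares need not hold for members with a large SE. A set simulated in the same way for the change with time between both cycle sides had 63.5% called. Gene names, positions and promoters came from RefSeq (GRCh38.p14), where all 10 members matched by name and position and 9 by promoter (not HEY1).

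Named were all members, the pathway genes called, the extremes of a list, and the 5 genes most like HES1 or HES5. The members and lists were chosen with earlier results of these data known. Alternatives were another cell filter (1000 or 3000 genes, 15% or no mitochondrial maximum), no TMM, no filterByExpr, genes of any library, thinned cells, no library block, each library left out, and a term for the flow cell.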

Additional observations from a re-analysis of the deposited data

Results flagged for a closer look

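A first cut removed the wells with the fewest genes detected, which are not counted here. The remaining wells that failed the cell filter (289 at 1 dpi, 318 at 4 dpi) entered no comparison, and 8 members had UMIs there above the limit of 3 counts. In total these wells held 420 UMIs of HES1, 144 of HES6, 43 of NRARP, 30 of HES4, 27 of HES5, 24 of HES2, 8 of HES7 and 8 of HEYL. HES1 stood at 1369, 1009 and 471 CPM in the failed wells of libraries 6, 7 and 8 and at 23.0 and 36.9 CPM in those of libraries 10 and 11, and HES6 had 0, 4 and 3 UMIs against 64 and 73. The failed wells counted here held 400848 UMIs at 1 dpi and 1374075 at 4 dpi, so HES6 was at 17.5 and 99.7 CPM in them.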

How the results depend on the processing

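Among the members called between time points, all kept their direction under every alternative tried, and 6 to 9 of the 10 were called, 6 in thinned cells, where HES7, HEY1 and HEY2 were too low to be tested. HEY1 was not called by DESeq2 (adjusted p = 0.0555) or with a mitochondrial maximum of 15% (adjusted p = 0.0522). In thinned cells 7 pathway genes were called in place of 17, and 3 in place of 5 members differed with HES5. The median co-detection ratio among the 6 genes at 1 dpi was 1.97 in thinned cells in place of 1.54. These medians cover different pairs, 11 with enough cells in place of 15, so they are not a like comparison. Members called in cells high or low for cycle genes numbered 2 by DESeq2 or with the 15% maximum, 1 in thinned cells and 0 without the library block, against 4. NRARP was called there with a minimum of 1000 genes (log2 difference 0.45, adjusted p = 0.0076) and without library 7 (0.43, adjusted p = 0.049).

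Values near 0 changed sign. With and without HES5, HES4 differed by 0.0784 without TMM and 0.43 in thinned cells, and by -0.22 to 0.10 when a library was left out, HES6 by 0.0710 without TMM and by -0.27 to 0.0646, and HES7 by -0.0456 to 0.99, on the log2 scale. Percent of cells with HES7 changed by 0.877 points in cells thinned to 10000 UMIs, 0.776 at 2 or more UMIs, 2.09 with over 3000 genes and -1.52 to 1.49 when a library was left out. HEY1 changed by -2.69 to 1.15 points when a library was left out, and HEY2 by 0.169 with the 15% maximum. The causes were not tested. Without TMM 71.5% of genes called with HES5 were higher ones, against 51.8%, and the median of all genes in the comparison of both sides over time moved to -0.12. No paired analysis was possible because the time points share no replicate numbers. Depth limits HES2, HES7, HEY1 and HEY2, with 7 to 97 UMIs in a library. It also limits HEYL (22 and 10 UMIs) and HES5 (10 and 15 UMIs) in libraries 10 and 11.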

Other observations

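The genes most like HES1 from cell to cell at 4 dpi, chosen after the values were seen, were CCNL1 (mean Pearson r 0.52 over 2 libraries), KLF10 (0.52), TIPARP (0.52), PER1 (0.51) and BHLHE41 (0.51), of which PER1 and BHLHE41 belong to the circadian clock. NRARP ranked 81 of 10745 genes (0.36), but in cells thinned to 5000 UMIs it ranked 1122 of 6785 (0.11, and -0.05 in library 10). In these thinned cells the list began with BHLHE41 (0.46), followed by NR1D1 (0.46), also a clock gene. HES6 at 4 dpi was most like IDH2 (0.57), SLC25A5 (0.51), PTMA (0.51), NKD1 (0.47), an inhibitor of Wnt signaling, and PARP1 (0.46), and in thinned cells IDH2 (0.32) and PARP1 (0.31) were again among the first 5, with DUT (0.35) and TUBA1B (0.34) above them. At 1 dpi no gene correlated with HES6 above 0.22. Cells share library and depth, so these values are descriptions.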
